A study of Mus musculus with 14 samples.

Results

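The genes described here encode the proteins of the mitochondrial ribosome that carry the symbols Mrpl (large subunit) or Mrps (small subunit) followed by a number. All protein-coding genes with such a symbol were taken, which gave 78 of the 42687 genes in the count table, 49 named for the large subunit and 29 for the small one. The rule uses the symbol and the gene type. Another 5 symbols of this form belong to processed pseudogenes and were left out. The 78 genes lie on 17 chromosomes.

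The mitochondrial ribosome translates the few mRNAs that mitochondrial DNA encodes, which specify core subunits of the respiratory chain and ATP synthase. All of its proteins are encoded in the nucleus, made in the cytosol and imported, while its RNAs come from mitochondrial DNA. Many of the proteins have a bacterial counterpart and others are found only in mitochondria. The retinal pigment epithelium (RPE), the pigmented layer behind the photoreceptors, relies strongly on mitochondrial respiration.

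RNA of the RPE was sequenced from male C57BL/6J mice aged 3 months, with both eyes of a mouse pooled in 1 library. The KO mice carried floxed Clic4 alleles (Clic4f/f) and Best1-Cre, a transgene in which the Best1 promoter drives Cre in the RPE. They were compared with 3 kinds of control in separate sets: wild-type mice (WT, 3 KO and 3 WT libraries), Clic4f/f mice without Cre (Ctrl, 2 and 2) and Best1-Cre mice without floxed alleles (CreCtrl, 2 and 2). Each kind of control occurred in 1 set, so control genotype and set cannot be told apart when sets are compared. The comparisons ask how loss of Clic4, which encodes chloride intracellular channel 4, alters the RPE transcriptome.

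Clic4 itself was measured at 243, 248.5 and 240 CPM (a gene's counts relative to the scaled library total, TMM within each set) in the WT libraries and at 32.6, 22.5 and 17.9 CPM in their KO libraries. The Ctrl libraries held 69.2 and 59.4 CPM against 9.40 and 32.7 CPM in KO. The CreCtrl libraries held 86.5 and 109 CPM against 13.2 and 30.4 CPM in KO. Every KO library was below every control of its set. Clic4 fell in KO vs. WT (log2 fold change -3.32 ± 0.22 SE) and KO vs. CreCtrl (-2.16 ± 0.36), and was -1.61 ± 0.58 in KO vs. Ctrl, where the adjusted p was 0.333.

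Library totals ranged from 9828293 to 32384166 counts. The summed level of 10 RPE markers was 17604 to 25754 CPM in WT and 73078 to 80226 CPM in their KO libraries, 44824 to 45726 against 69198 to 71123 CPM in the Ctrl set, and 50919 to 58041 against 69536 to 77881 CPM in the CreCtrl set. The sum of 10 fibroblast markers moved the other way, from 9253 to 9810 CPM in WT to 305 to 856 CPM in KO, from 1259 to 2441 to 125 to 335 CPM in the Ctrl set, and from 1495 to 3119 to 248 to 361 CPM in the CreCtrl set. Single markers differed from these sums. In each comparison 9 RPE markers had log2 fold changes above 0 and 1 below 0, at -1.82 against WT, -0.95 against Ctrl and -1.11 against CreCtrl. Of the fibroblast markers 1 was above 0 in KO vs. CreCtrl (0.38). All 12 immediate-early genes listed, which respond to stimulation and handling, fell in KO vs. WT and in KO vs. CreCtrl, where 19% and 12.2% of all genes tested did. In KO vs. Ctrl, where no gene passed the test, all 12 were also below 0 (median -2.88). The part of these shifts in the results below was not tested. In bulk RNA, fewer cells of a type and less RNA per cell cannot be told apart.

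In the 7 control libraries the mitoribosomal genes spanned a wide range of levels. Levels between genes are given per kilobase of annotated exon (RPKM, scaled over all 14 libraries). The median was 9.34 RPKM over the 49 large-subunit genes and 6.00 RPKM over the 29 small-subunit genes. The highest large-subunit genes were Mrpl34 at 48.6 ± 11 RPKM (SD, n = 7), Mrpl58 at 38.1 ± 9.77, Mrpl24 at 38.1 ± 8.09 and Mrpl54 at 35.1 ± 5.23. The spreads of these 4 overlapped, so their order is not resolved. The highest small-subunit genes were Mrps21 at 54.6 ± 19.8 RPKM, Mrps6 at 49.1 ± 12.2, Mrps7 at 35.2 ± 4.47 and Mrps23 at 32.2 ± 3.99. The lowest small-subunit genes, Mrps30, Mrps35, Mrps10 and Mrps22, lay between 2.2 and 2.5 RPKM. The lowest large-subunit genes were Mrpl15 at 2.30 RPKM, Mrpl1 at 2.11, Mrpl23 at 1.09 and Mrpl53 at 0.012. Dividing instead by the length of the transcript with the longest coding sequence kept 1 of the 4 highest and 2 of the 4 lowest large-subunit genes, and 3 and 2 of the small-subunit ones, so the order depends on the length used.

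Mrpl53 had between 0 and 4 counts per library and passed the filter in no set. Most of its exon sequence is shared on the same strand with another annotated gene, Gm42688, which had 26 to 103 counts. Mrpl23 had 4 to 17 counts in the Ctrl set, where it was not tested, against 62 to 211 in the other libraries. It has a processed pseudogene, which had at most 12 counts. Of the 78 genes, 33 overlap an exon of another gene, 8 of them on the same strand. The strand setting of the counting is not given in the sources used here, so reads of such neighbors may be assigned to either.

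Taken as sums, both subunits were higher in KO in each set. The large subunit summed to 1331, 1435 and 1510 CPM in WT and to 2312, 2481 and 2363 CPM in the KO libraries of that set. In the Ctrl set it summed to 1390 and 1304 CPM against 1590 and 1790 CPM in KO. In the CreCtrl set it summed to 1681 and 1416 CPM against 1866 and 1968 CPM in KO. On this TMM scale no KO sum overlapped a control sum of its own set. The ratio of KO to control means was 1.67 for the WT, 1.25 for the Ctrl and 1.24 for the CreCtrl set. The small subunit gave 1.62, 1.25 and 1.26. As a percent of all counts, without TMM, the ratios were 1.41, 1.16 and 1.06 for the large and 1.37, 1.15 and 1.08 for the small subunit. On that scale KO replicate 1 of the Ctrl set (0.1524%) was below Ctrl replicate 1 (0.1527%) for the large subunit. KO replicate 2 of the CreCtrl set was below CreCtrl replicate 1 for both subunits (0.1753% against 0.1767%, and 0.0947% against 0.0949%), so the groups were apart in the WT set for both subunits and in the Ctrl set for the small one. A two-sided exact permutation test cannot go below p = 0.1 with 3 against 3 libraries or 0.333 with 2 against 2, so none was run on these sums. The ratio of large-subunit to small-subunit counts stayed between 1.75 and 1.95 in all 14 libraries. The ratio of KO to control means of the RPE marker sum was 3.58, 1.55 and 1.35 in the same order of sets.

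**Figure D1:**
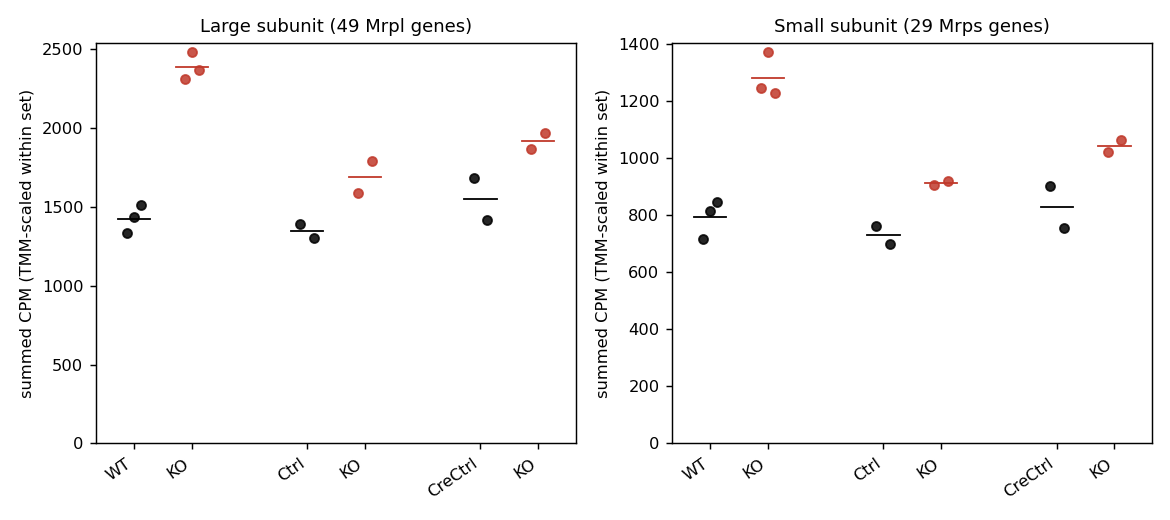
Summed expression of the 49 large-subunit genes (left) and 29 small-subunit genes (right) in each library, in CPM scaled within its set, with a point for each library and a line for the group mean. The KO libraries of the WT set sit highest, at 2312 to 2481 CPM for the large subunit, and on this scale the KO libraries of each set lie above their controls, which as a percent of all counts held for both subunits in the WT set and for the small subunit in the Ctrl set.

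In KO vs. WT, 77 of the 78 genes could be tested and 39 rose (adjusted p under 0.05, edgeR), where 16.1% of all 15428 genes tested did. None fell, where 19% of all genes did. The median log2 fold change was 0.69, against -0.08 over all genes tested, and 70 of the 77 were above 0. A fold above 1.5 was reached by 35 of those that rose, against 14.1% of all genes. Every KO library lay above every WT library for 48 of the 77, against 23.7% of all genes. Scaling by library size alone moved the median of all genes to -0.32 and that of the mitoribosomal genes to 0.45, a difference of 0.77 between them under both scalings. It left 28 genes called higher and 2 lower, beside 1716 higher and 3942 lower over all genes, and 59 of 77 above 0.

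The large subunit had 27 of 48 genes higher with a median of 0.72, and the small subunit 12 of 29 with a median of 0.50. Genes with a bacterial counterpart had 21 of 45 higher (median 0.58) and genes found only in mitochondria 15 of 27 (median 0.84). These classes were not tested against each other.

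**Figure D2:**
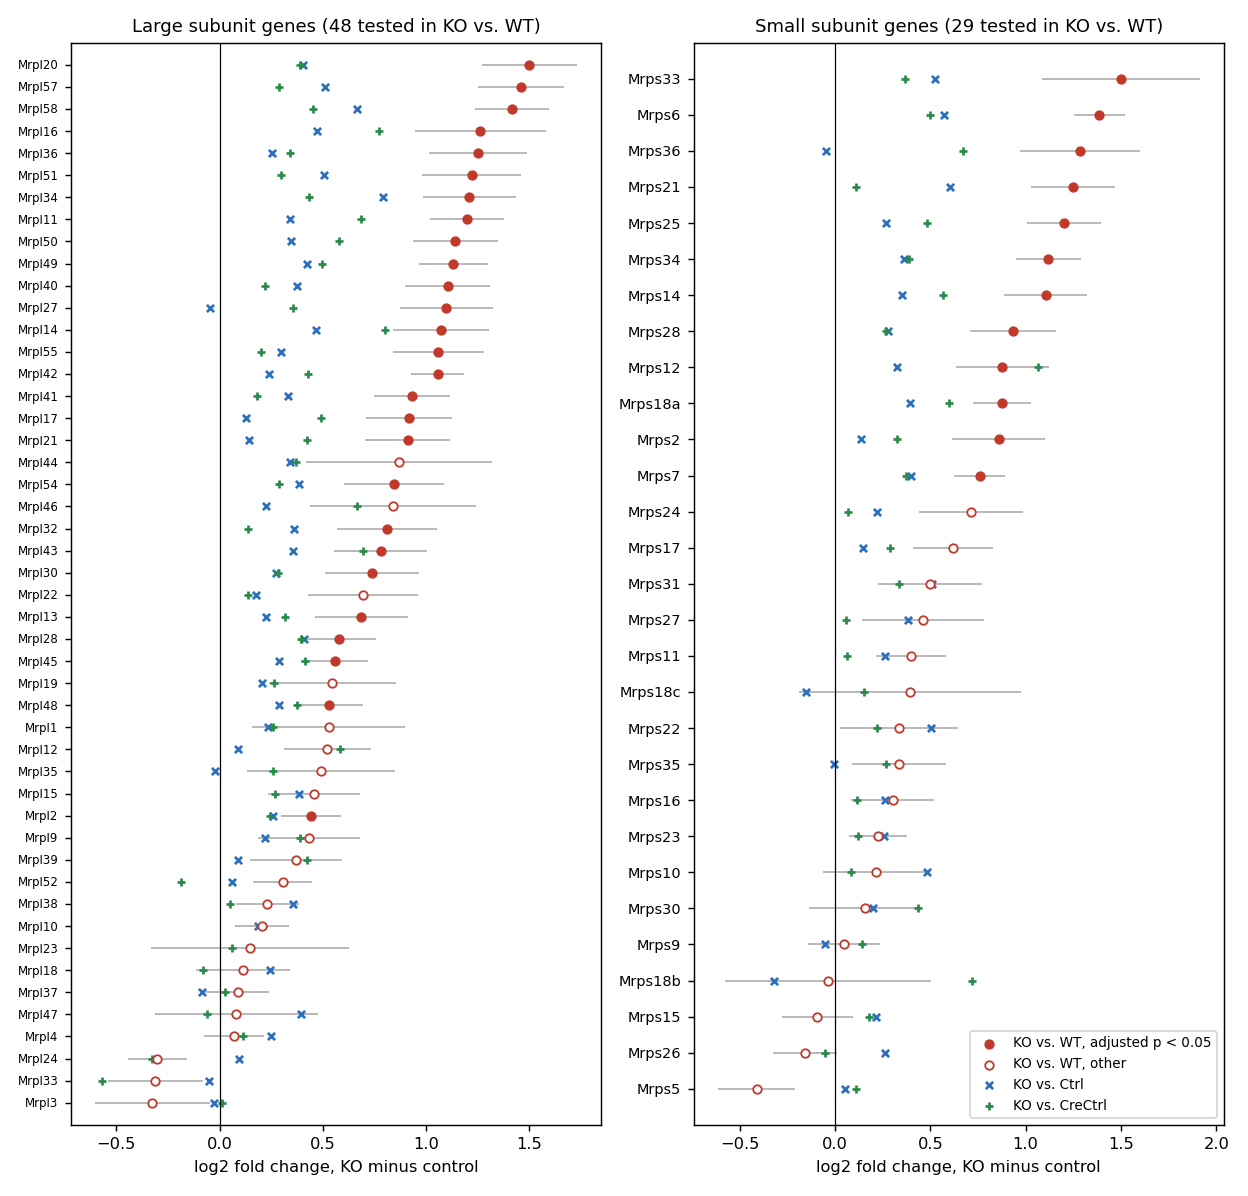
Log2 fold change of each mitoribosomal gene, KO minus control, for the large subunit (left) and the small subunit (right), ordered by KO vs. WT. Circles with bars give KO vs. WT with its standard error, filled where the adjusted p was under 0.05, and crosses and plus signs give KO vs. Ctrl and KO vs. CreCtrl. Most points lie right of 0, and in KO vs. WT 39 circles are filled.

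Among the large-subunit genes Mrpl20, which has a bacterial counterpart, had the largest change. It measured 22.3, 31.1 and 39.5 CPM in WT and 89.5, 103 and 71.3 CPM in KO, with no overlap between the groups. Its log2 fold change was 1.5 ± 0.23 SE (adjusted p = 0.00126). Mrpl57, found only in mitochondria, measured 25.4, 15.5 and 19 CPM in WT and 59.5, 53.5 and 52 CPM in KO (1.46 ± 0.21). Mrpl58 encodes a peptidyl-tRNA hydrolase that is built into the large subunit and can release stalled chains. It measured 79.4, 110 and 125 CPM in WT and 250, 300.3 and 291 CPM in KO (1.42 ± 0.18, adjusted p = 0.000485). Mrpl16, Mrpl36 and Mrpl51 followed with log2 fold changes of 1.26 ± 0.32, 1.25 ± 0.24 and 1.22 ± 0.24. The KO and WT libraries did not overlap for any of these 6 genes.

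Among the small-subunit genes Mrps6, which has a bacterial counterpart, had the lowest adjusted p (0.000131). It measured 58.4, 66.6 and 70.1 CPM in WT and 151, 188 and 171 CPM in KO (1.39 ± 0.13). Part of its exon sequence is shared on the same strand with Slc5a3. Mrps33 measured 3.53, 3.91 and 6.34 CPM in WT and 14.5, 15.6 and 8.90 CPM in KO (1.5 ± 0.41), and its adjusted p of 0.022 passed the threshold in the comparison of all 6 libraries. It was 0.0697 without WT replicate 1, 0.0680 without WT replicate 2, 0.0623 without KO replicate 1 and 0.0586 without KO replicate 2. Mrps36, now known as a subunit of the 2-oxoglutarate dehydrogenase complex, had 1.29 ± 0.32, with an adjusted p of 0.0130 that became 0.0763 with all 14 libraries in one fit. Mrps21, Mrps25 and Mrps34 had 1.25 ± 0.22, 1.20 ± 0.19 and 1.12 ± 0.17. Mrps25 and Mrps34 overlap exons of neighboring genes.

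**Figure D3:**
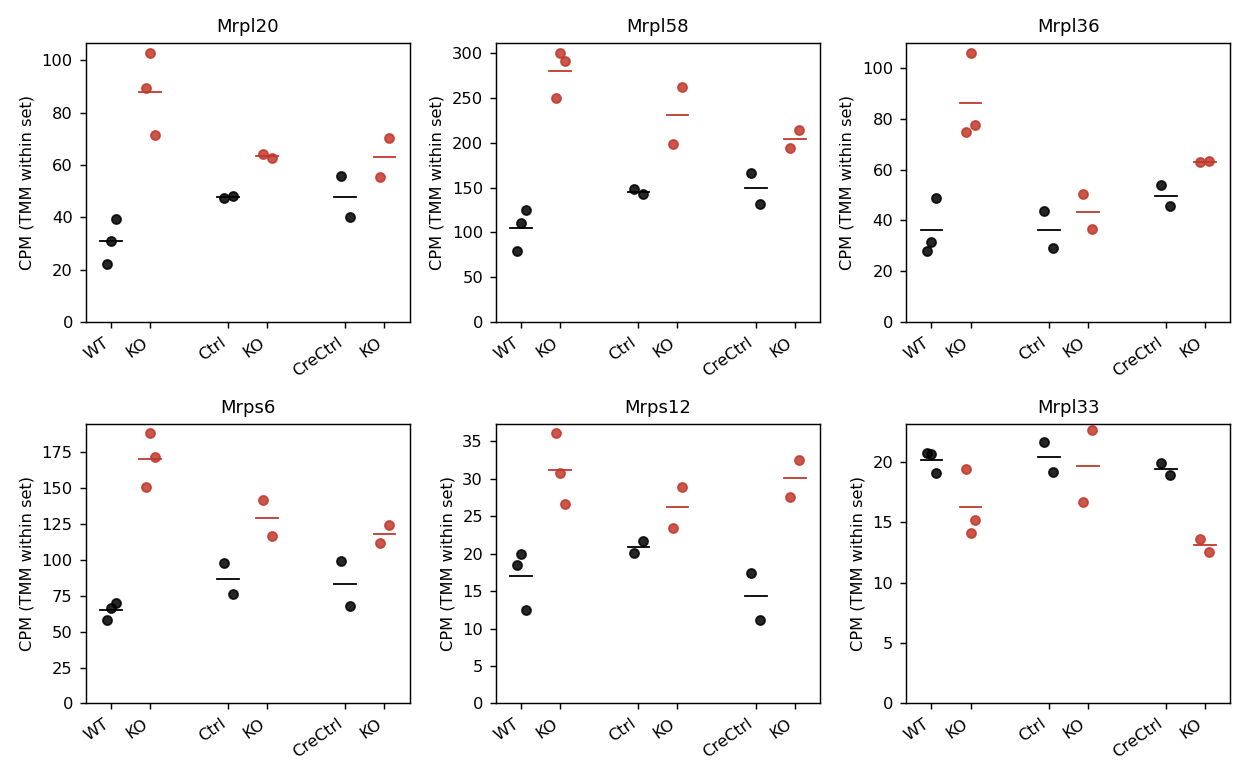
Expression of 6 mitoribosomal genes in each library, in CPM scaled within its set, with a point for each library and a line for each group mean. Mrpl20, Mrpl58, Mrpl36 and Mrps6 have their highest group mean in the KO libraries of the WT set, on a scale set separately for each set. Mrps12 has a higher group mean in KO in each set, and the group means of Mrpl33 are not higher in KO.

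The 7 genes below 0 in KO vs. WT were Mrps5, Mrpl3, Mrpl33, Mrpl24, Mrps26, Mrps15 and Mrps18b, and none passed the test. The lowest was Mrps5 at -0.41 ± 0.20 (adjusted p = 0.157). Mrpl33 was the 1 gene below 0 in all 3 comparisons. It measured 20.7, 20.7 and 19.1 CPM in WT and 19.4, 14.1 and 15.2 CPM in KO, 21.7 and 19.2 CPM in Ctrl and 16.7 and 22.6 CPM in KO, and 19.9 and 19 CPM in CreCtrl and 13.7 and 12.5 CPM in KO. The groups were apart in the CreCtrl set alone, where its log2 fold change was -0.57 ± 0.19 (adjusted p = 0.0786). The annotated exons of Mrpl33 cover 7326 bp, against 478 nt for its transcript with the longest coding sequence. They share 261 bp on the same strand with Gm43809. The part of this in its values was not tested.

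Promoter sequences are shown for 4 genes that rose, chosen because 1 of 4 short motifs lies in the 250 bases before the start of transcription. They are the genes of this kind among the 6 largest changes per subunit in KO vs. WT and the 3 genes called in KO vs. CreCtrl. The sequences are from RefSeq (GRCm38.p6), written 5′ to 3′ on the strand of the gene, and capitals mark the motif. They lie at chr11:115403502-115403751, plus strand (Mrpl58), chr13:73330759-73331008, plus strand (Mrpl36), chr6:125191950-125192199, plus strand (Mrpl51) and chr19:45006443-45006692, minus strand (Mrpl43). The starts are those of RefSeq, and for Mrpl36 and Mrpl51 they lie downstream of the first base of the gene in GENCODE, 73328513 and 125191801.
Mrpl58: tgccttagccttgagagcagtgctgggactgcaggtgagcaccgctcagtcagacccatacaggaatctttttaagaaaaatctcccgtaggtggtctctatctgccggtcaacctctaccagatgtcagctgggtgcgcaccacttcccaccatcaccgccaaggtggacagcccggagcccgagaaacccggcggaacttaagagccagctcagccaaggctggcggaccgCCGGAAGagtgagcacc
Mrpl36: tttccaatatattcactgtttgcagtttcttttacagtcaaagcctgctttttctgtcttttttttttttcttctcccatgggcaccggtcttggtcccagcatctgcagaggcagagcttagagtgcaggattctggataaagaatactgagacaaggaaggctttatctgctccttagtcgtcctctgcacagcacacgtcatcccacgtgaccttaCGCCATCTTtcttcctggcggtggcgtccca
Mrpl51: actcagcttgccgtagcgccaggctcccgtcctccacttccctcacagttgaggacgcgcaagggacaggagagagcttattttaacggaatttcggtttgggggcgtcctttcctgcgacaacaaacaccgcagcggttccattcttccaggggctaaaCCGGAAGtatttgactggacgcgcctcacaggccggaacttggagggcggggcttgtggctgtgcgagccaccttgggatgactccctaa
Mrpl43: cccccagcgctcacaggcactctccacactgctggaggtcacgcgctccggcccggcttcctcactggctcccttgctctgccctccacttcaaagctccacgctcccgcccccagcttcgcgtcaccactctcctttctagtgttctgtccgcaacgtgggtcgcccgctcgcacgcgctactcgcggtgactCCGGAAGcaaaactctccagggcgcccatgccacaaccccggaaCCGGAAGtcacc

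The motifs searched on both strands were GCGCATGCG (bound by NRF1), CCGGAAGTG and its shorter form CCGGAAG (ETS factors such as GABP) and AAGATGGCG (YY1). Every match to CCGGAAGTG is also one to CCGGAAG. These factors are known as regulators of nuclear genes for mitochondrial proteins. A promoter from 250 bases before to 50 bases after the start was found for 69 of the 78 genes. CCGGAAG occurred in 26 of the 69 genes (37.7%), against 13.4% of 16430 protein-coding genes and 9.93% of all genes with a promoter. AAGATGGCG occurred in 8 genes (11.6%, against 2.25% of protein-coding genes), GCGCATGCG in 7 (10.1% against 2.74%) and CCGGAAGTG in 4 (5.80% against 3.15%). A match describes the letters and not binding. In KO vs. WT, 13 of 25 tested genes with CCGGAAG rose (median 0.70), as did 19 of 33 with none of the motifs (median 0.76). The counts were 3 of 8 with AAGATGGCG (median 0.60), 2 of 7 with GCGCATGCG (0.43) and 0 of 4 with CCGGAAGTG (0.07). These groups were not tested against each other.

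In KO vs. CreCtrl, 3 of 77 genes rose, against 3.6% of 15963 genes tested, and none fell, against 12.2%. The share that rose was near that of all genes. The median was 0.29, against -0.02 over all genes, and 71 of 77 were above 0. Every KO library lay above every CreCtrl library for 48 of the 77, against 34.8% of all genes. The 3 genes were Mrpl14 and Mrps12, both with a bacterial counterpart, and Mrpl43, found only in mitochondria. Mrps12, a protein of the decoding center, measured 17.5 and 11.2 CPM in CreCtrl and 27.6 and 32.5 CPM in KO (1.06 ± 0.25, adjusted p = 0.034). Mrpl14 measured 25.8 and 20.7 CPM against 42.7 and 38.7 CPM (0.80 ± 0.17). Mrpl43 measured 34.8 and 26.4 CPM against 49.4 and 49.9 CPM (0.70 ± 0.18). The groups did not overlap for any of the 3, and Mrpl43 shares exon sequence with the opposite-strand gene Twnk.

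This count rested on single libraries. It was 24 without CreCtrl replicate 1, 0 without CreCtrl replicate 2, 1 without KO replicate 1 and 0 without KO replicate 2. CreCtrl replicate 1 was above CreCtrl replicate 2 for 68 of the 77 genes. The summed level of 10 rod photoreceptor markers was 1000.3 CPM in CreCtrl replicate 1 and 4735 CPM in replicate 2, against 358 and 237 CPM in KO, and its part in the result was not tested. Under library size alone 1 gene was called higher and 2 lower, beside 219 higher and 2757 lower over all genes. The median fell to 0.07 while that of all genes fell to -0.24.

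In KO vs. Ctrl, edgeR called none of the 76 genes tested, as of all 15287 genes (0%), and 1 gene, Mrpl58, had an unadjusted p under 0.05, as did 1846 of all genes, 109 of them higher. DESeq2 also called none of them, with 9 of all genes higher and 1159 lower. The median was 0.27, against 0.01 over all genes, and 66 of 76 were above 0. Every KO library lay above every Ctrl library for 37 of the 76, against 18.2% of all genes. Mrpl58 measured 148.6 and 142 CPM in Ctrl and 199 and 262 CPM in KO (0.67 ± 0.24, adjusted p = 0.343). The next lowest unadjusted p were those of Mrps6 (0.57 ± 0.25), Mrpl34 (0.79 ± 0.37) and Mrpl49 (0.43 ± 0.21). The groups did not overlap for these 4 genes.

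With all 14 libraries in a fit that allows each set its own level, 48 of 77 genes were higher in the 7 KO libraries than in the 7 controls, against 20.1% of 16181 genes tested, and none was lower, against 18.6%. The median was 0.51, against -0.01 over all genes. The large subunit had 34 of 48 higher and the small subunit 14 of 29. The largest change was that of Mrpl58 (0.98 ± 0.18). Under library size alone the counts were 21 higher and 2 lower, beside 1531 higher and 4598 lower over all genes.

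The KO effect was compared between sets gene by gene. Of 76 genes tested in all 3 comparisons, 59 were above 0 in each, and 55 had their largest value in KO vs. WT. The same was not counted over all genes, so these counts cannot be read as particular to the mitoribosomal genes. Of all genes tested, 16.1% rose in KO vs. WT, 3.6% in KO vs. CreCtrl and 0% in KO vs. Ctrl. The effect on Mrpl20 was larger in the WT set than in the Ctrl set by 1.24 ± 0.33 on the log2 scale (adjusted p = 0.0487), and it was the 1 of 77 genes called, against 4.34% of 17662 genes higher by this difference. This call was not stable. It was lost under RLE normalization (adjusted p = 0.0822), library size alone (0.112) and the stricter count filter (0.0570), and on leaving out 10 of the 14 libraries in turn. The adjusted p was 0.0572 and 0.187 without Ctrl replicates 1 and 2, 0.0886 and 0.164 without KO replicates 1 and 2 of the Ctrl set, 0.0741 and 0.0743 without WT replicates 1 and 2, 0.0719 and 0.108 without KO replicates 1 and 2 of the WT set, and 0.0629 and 0.0635 without KO replicates 1 and 2 of the CreCtrl set. An unadjusted p under 0.05 was found for 24 genes (31.2%), Mrpl20 among them, against 21.4% of all genes. None of the genes differed between the WT and CreCtrl sets by edgeR, against 1.12% of all genes higher by this difference, while 23 (29.9%) had an unadjusted p under 0.05, against 14.9% of all genes. None differed between the CreCtrl and Ctrl sets, and neither did any of all 17662 genes tested (0), so this is not particular to the mitoribosomal genes. There 0 of 77 had an unadjusted p under 0.05, against 8.75% of all genes.

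The proteins whose names and positions differ were followed apart. Mrps18a, Mrps18b and Mrps18c are paralogs, of which Mrps18a sits in the large subunit. Mrps18a rose in KO vs. WT (0.88 ± 0.15), with 68.2, 84.0 and 94.7 CPM in WT and 151, 168 and 135 CPM in KO. Mrps18b was -0.04 ± 0.54 and Mrps18c 0.39 ± 0.58, both at under 9 CPM in the libraries of the WT set, and neither passed the test. Mrps30, which also sits in the large subunit, was 0.16 ± 0.30. Mrpl12, a stalk protein that contacts translation factors, was 0.52 ± 0.21 in KO vs. WT (adjusted p = 0.0886) and 0.58 ± 0.16 in KO vs. CreCtrl (adjusted p = 0.0502). Mrps36 varied within groups of the Ctrl set, with 17 and 238 counts in the Ctrl libraries and 31 and 128 in KO, and its value there was -0.05 ± 1.07.

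The change in KO vs. WT varied with the length of the coding sequence, a relation looked for after the values were seen. Of the 26 genes with coding sequences up to 499 nt, 21 rose and the median was 1.09. Of the 25 up to 755 nt, 14 rose (median 0.71), and of the 26 longer ones 4 rose (median 0.35). All protein-coding genes split at the same lengths had medians of 0.35, 0.15 and -0.14, with 31%, 24.1% and 15.2% called higher. The longest range had no upper limit. It reached 105639 nt over all protein-coding genes and 1326 nt over the mitoribosomal genes, so its values do not compare genes of like length. Mrpl33, with the shortest coding sequence at 195 nt, did not rise. Across the 77 genes Spearman's rho between coding length and log2 fold change was -0.54, and it was -0.21 over 76 genes in KO vs. Ctrl and -0.15 over 77 in KO vs. CreCtrl. The genes share their libraries, so these values describe the libraries. Cytosolic ribosomal proteins of the shortest range had a median of -0.28 in KO vs. WT.

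**Figure D4:**
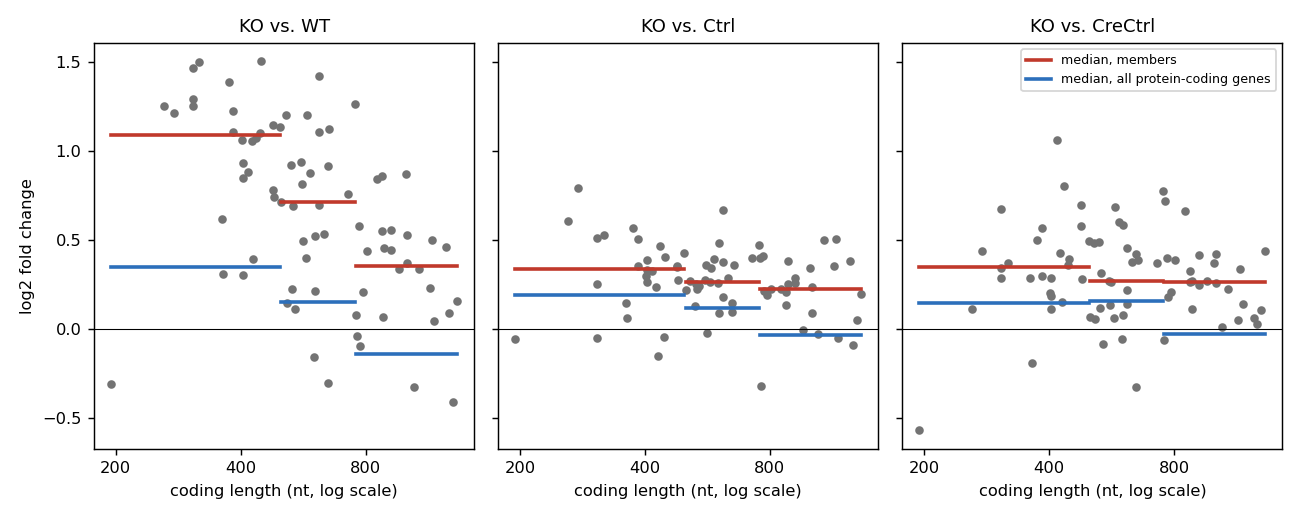
Log2 fold change of each mitoribosomal gene against its coding length (nt, log scale) in the 3 comparisons, with the median of the mitoribosomal genes (red) and of all protein-coding genes (blue) in 3 ranges of length. In KO vs. WT the red lines step down from 1.09 to 0.35 and lie above the blue lines. The blue line of the longest range also covers protein-coding genes longer than any mitoribosomal gene.

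Lists of other genes of mitochondrial translation were counted in the same way in KO vs. WT, and were not tested against the mitoribosomal genes. Of all genes tested in this comparison, 16.1% rose and 19% fell. Of the 5 mitoribosomal proteins with other names 3 rose, among them Aurkaip1 (1.12 ± 0.21) and Chchd1 (1.04 ± 0.24). Of 15 translation factors and mRNA-binding partners 6 rose and 1 fell (median 0.51). Slirp and Lrpprc, which form a complex that stabilizes mitochondrial mRNAs, rose by 0.89 ± 0.15 and 0.86 ± 0.16, and Guf1, an elongation factor, was lower (-0.54 ± 0.16). Of 27 assembly factors 3 rose (11.1%, against 16.1% of all genes) and none fell (median 0.12). Among those that rose were Mpv17l2 (0.93 ± 0.17) and Ngrn (0.72 ± 0.18). The 20 mitochondrial aminoacyl-tRNA synthetases had a median of 0.32, and Lars2 (-1.22 ± 0.34) and Tars2 (-0.56 ± 0.19) were lower. Lars2 varied widely between libraries, at 1915 ± 1010 CPM (SD) in WT and 819 ± 151 CPM in their KO libraries. In KO vs. Ctrl its log2 fold change was 0.49 ± 1.12. Of 8 genes of mitochondrial DNA transcription and maintenance none passed the test by edgeR or DESeq2, 0 had an unadjusted p under 0.05, and Polrmt and Tfam measured 0.41 ± 0.18 and 0.36 ± 0.26. RNAs encoded by mitochondrial DNA were not analysed here.

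The respiratory chain subunits encoded in the nucleus, which work beside the products of the mitochondrial ribosome, rose in 74 of 82 cases (median 1.3). The share over all genes was 16.1%. Ndufa4l2 was lower, at low levels with means of 4.94 CPM in WT and 0.18 CPM in KO. Ndufa4 (2.25 ± 0.15) and Ndufc2 (2.17 ± 0.14) had the lowest adjusted p. Cytosolic ribosomal proteins had none higher and 29 of 76 lower, against 19% of all genes, with a median of -0.33. Those lower included Rps23 (-1.03 ± 0.14) and Rps4x (-1.02 ± 0.13). The summed level of the cytosolic ribosomal proteins was 2152 to 3555 CPM in the Ctrl set and 9307 to 19184 CPM in the other libraries.

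In KO vs. CreCtrl, where 3.6% of all genes rose and 12.2% fell, the same lists held few calls. Tfam, which packages mitochondrial DNA and takes part in its transcription, rose (0.63 ± 0.17, adjusted p = 0.048). The assembly factors Mettl17 (-0.78 ± 0.19) and Mrm1 (-1.09 ± 0.26) were lower. Of the respiratory subunits Sdhd rose (0.78 ± 0.21) and Ndufa4l2 fell, at means of 1.28 CPM in CreCtrl and 0.097 CPM in KO. The median of the respiratory subunits, 0.34, stood beside 0.29 for the mitoribosomal genes. Cytosolic ribosomal proteins had a median of -0.05. In KO vs. Ctrl edgeR called none of these genes, nor any other gene tested. The medians were 0.35 for respiratory subunits and -0.37 for cytosolic ribosomal proteins. An unadjusted p under 0.05 was found for 1 respiratory subunit and 4 cytosolic ribosomal proteins, against 1846 of all 15287 genes.

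**Figure D5:**
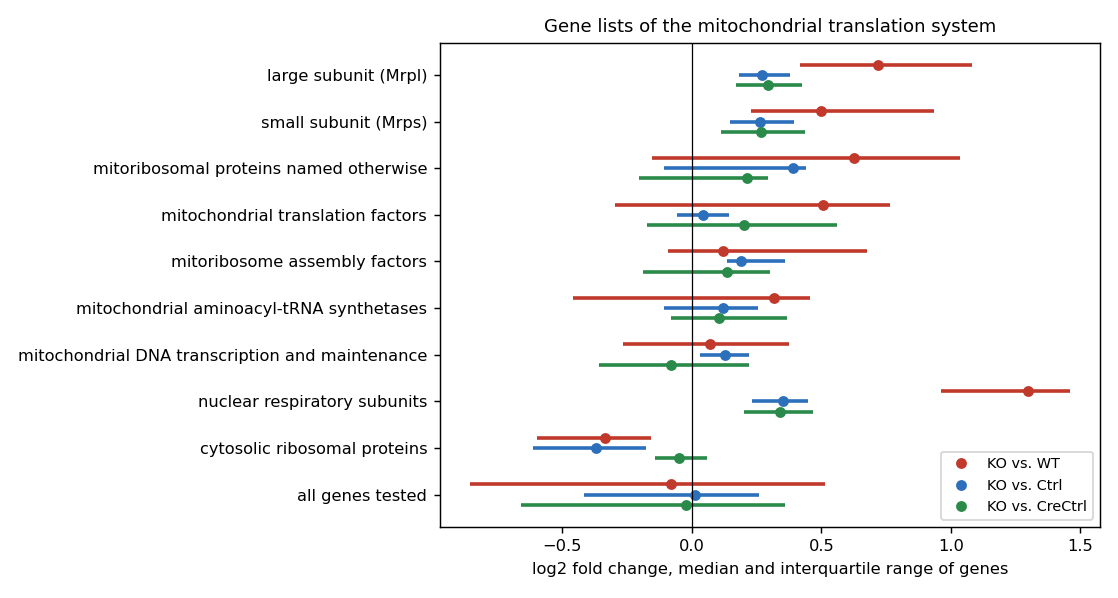
Median (point) and interquartile range (line) of the log2 fold changes of gene lists in the 3 comparisons, with all genes tested at the bottom. In KO vs. WT the respiratory subunits lie at 1.3 and the large and small mitoribosomal subunits at 0.72 and 0.50, with the cytosolic ribosomal proteins at -0.33.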

How the data were processed

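RNA was sequenced from 14 RPE libraries of 6 groups, and the authors deposited raw read counts per Ensembl gene. Reads were aligned to GRCm38 with STAR 2.5.2, and HTSeq 0.11.2 is among the tools in the submitters' processing notes. The annotation release and strand setting are not given in the sources used here. KO libraries were assigned to sets by how their titles are written. GENCODE M21 gave gene names, positions and lengths.

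Counts were tested within each set by edgeR 4.0.16 (R 4.3.3) with TMM normalization, filterByExpr and its quasi-likelihood test, with Benjamini-Hochberg adjustment over all genes tested. Differences between sets and the comparison of 7 KO with 7 control libraries were fitted over all 14 libraries. DESeq2 1.42.0, other normalizations and filters, and leaving out each library were alternatives. The scripts were tested on simulated data. Replicates are separate mice, but animals within a set may share a batch. Library totals of 9828293 to 32384166 counts limit the precision for genes of few counts. The genes and lists were chosen with earlier results of these data known. Genes named are, per subunit, the 6 largest called changes in KO vs. WT, called genes or the 4 lowest p elsewhere, genes differing between sets, the 4 highest and lowest levels, untested genes, genes lower in all comparisons and 6 genes of special position or function. From the lists, the 2 lowest adjusted p per direction in KO vs. WT are named, with Polrmt and Tfam, except for a result that is not reported here. Genes called in KO vs. CreCtrl in those lists, the 7 genes below 0 in KO vs. WT and the genes of the plots were added after their values were seen.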

Additional observations from a re-analysis of the deposited data

Results flagged for a closer look

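The KO effect differed between sets, by a test of the difference itself, for 1 mitoribosomal gene and both respiratory subunits named above for their low adjusted p. These subunits were chosen by their values in KO vs. WT, and that choice favors a larger effect in the WT set. Of all 82 respiratory subunits tested, the effect was larger in the WT set for 39 against the Ctrl set and for 17 against the CreCtrl set. The shares over all genes were 4.34% and 1.12%. For Mrpl20 it was larger in the WT set than in the Ctrl set by 1.24 on the log2 scale (adjusted p = 0.0487). For Ndufc2 it was larger by 2.00 than in the Ctrl set (adjusted p = 0.00744) and by 1.86 than in the CreCtrl set (adjusted p = 0.0166). For Ndufa4 it was larger by 1.92 (adjusted p = 0.0117) and 1.97 (adjusted p = 0.0229). The call of Mrpl20 was lost without any of 10 of the 14 libraries, as given above. That of Ndufc2 against the Ctrl set held on leaving out each of the 14, and that of Ndufa4 was lost without KO replicate 2 of the Ctrl set (adjusted p = 0.0562). Against the CreCtrl set both were lost without CreCtrl replicate 1 (0.103 for Ndufc2 and 0.149 for Ndufa4), KO replicate 1 of that set (0.0969 and 0.143), KO replicate 2 of that set (0.143 for both) and KO replicate 2 of the WT set (0.0506 and 0.0614). Control genotype and set cannot be told apart in these differences. No group had more than 3 libraries, so single libraries were not examined for standing apart from their group.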

How the results depend on the processing

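In KO vs. WT the number of genes called higher was within 1.5 times of 39 under every alternative run. The median of 0.69 became 0.83 with all 14 libraries in one fit, 0.77 with all genes of at least 1 count and 0.45 under library size alone, which called 2 genes lower. In KO vs. Ctrl no alternative called any of them, and library size alone gave a median of 0.14. In KO vs. CreCtrl the 3 genes called higher became 9 with DESeq2 and 13 with all genes of at least 1 count. The count was 0 with all 14 libraries in one fit and 1 under library size alone, which called 2 lower and gave a median of 0.069. Over all genes the calls higher went from 575 to 1597, 1862, 198 and 219 in the same order. For 7 KO vs. 7 control, library size alone called 21 higher and 2 lower, and at least 10 counts in every library gave 1 lower. The difference between the WT and Ctrl sets (1 gene) was 0 under RLE normalization, library size alone, at least 10 counts in every library and the replicate block, and that between the WT and CreCtrl sets (0 genes) was 1 with at least 10 counts. The cause of these changes was not tested. Restricting the genes to the 45 with no exon overlap, chosen after seeing the data, moved each median by less than the spread between replicates.

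Leaving out each library in turn gave 29 to 36 genes higher in KO vs. WT (median 0.53 to 0.75), 0 in KO vs. Ctrl (0.21 to 0.36), 0 to 24 in KO vs. CreCtrl (0.13 to 0.46) and 42 to 50 for 7 KO vs. 7 control (0.46 to 0.57), with 0 lower in each. Leaving out libraries gave 0 to 3 genes that differ between the WT and Ctrl sets, 0 to 1 between the WT and CreCtrl sets and 0 between the CreCtrl and Ctrl sets.

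Some named genes near 0 changed sign. In KO vs. WT, Mrps18b became 0.10 with all 14 libraries in one fit and 0.043 with all genes of at least 1 count, and Mrps30 became -0.084 under library size alone; leaving out libraries gave -0.25 to 0.40 and -0.037 to 0.42. In KO vs. Ctrl, Mrpl12 became -0.021 under library size alone and Mrps36 became 0.28 with the replicate block; leaving out libraries gave -0.0080 to 0.20 for Mrpl12, -0.53 to 0.34 for Mrps18c, -0.65 to 0.12 for Mrps18b and -1.31 to 2.10 for Mrps36. In KO vs. CreCtrl, Mrps18c became -0.062 under library size alone and -0.13 to 0.47 on leaving out libraries.

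Whether replicate numbers pair the samples was not settled. Deviations of same-numbered libraries correlated at -0.018, 0.073 and 0.18 among WT and their KO libraries. They correlated at -0.0059 for the Ctrl set and 0.13 for the CreCtrl set, with 2 pairs each. In groups of 2 libraries the deviations mirror each other, so the pairs of such a set give the same value. Over all genes, the block raised the calls in KO vs. CreCtrl from 575 to 1108 higher and from 1954 to 2716 lower. In KO vs. WT it lowered them from 2490 to 2300 and from 2929 to 2587. With the replicate block, genes called higher numbered 33 against WT, 0 against Ctrl, 8 against CreCtrl and 46 for 7 KO vs. 7 control. Of the named genes called in KO vs. WT, Mrps33 was not called with the block (adjusted p = 0.0576).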

Other observations

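Many mitoribosomal genes start close to a gene transcribed the other way. A protein-coding gene on the opposite strand with its start within 1000 bp upstream, or overlapping by at most 300 bp, was found for 23 of the 78 genes (29.5%), against 8.65% of 21682 protein-coding genes. In the 20 pairs with both genes tested in KO vs. WT, 14 mitoribosomal genes rose (median of the 20, 0.86), while 4 partners rose and 3 fell (median -0.11). Both genes rose in 3 pairs. Over all genes tested in this comparison, 16.1% rose and 19% fell. Mrpl36 (1.25) is paired with Ndufs6 (1.3 ± 0.20), a complex I subunit, with the starts overlapping by 29 bp. These are GENCODE gene starts, and the Mrpl36 promoter printed above precedes a RefSeq start further downstream. Mrpl32 (0.81) is paired with Psma2 (0.96 ± 0.12), a proteasome subunit, with starts 75 bp apart. Mrpl49 (1.13) is paired with Fau (-0.42 ± 0.14), which encodes a cytosolic ribosomal protein, with starts 59 bp apart. Mrps12 (0.88) is paired with Sars2 (0.30 ± 0.44), the mitochondrial seryl-tRNA synthetase. The pairs were looked for after the fold changes were seen, and those named were chosen for what the partner does.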
